A study of Mus musculus with 4 samples.

Results

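The comparison described here is that of mouse liver after infusion of propionate into the cecum with mouse liver after infusion of acetate. It rests on 2 of the 4 arrays of the study, the pool labelled propionate infusion and the pool labelled acetate infusion. For each gene the log2 level in the propionate pool minus that in the acetate pool was taken, so a positive ratio means a higher level with propionate. The question it addresses is how liver gene expression differs between these acids when both are given at the same molar rate. Of 18820 genes measured by probe sets with 1 symbol, counts were taken over the 9410 whose 4-array mean reached the median of all gene means. This level floor was 5.55 on the log2 scale, with a gene mean of 5.546 just inside it and 5.545 just outside.

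Both groups were male C57Bl/6J mice, 16-17 weeks old by the labels, which were kept for 6 weeks on a semi-synthetic diet with palm oil as its fat and were then given a lasting cecal catheter. After at least 5 days of recovery and a fast of a few morning hours, the propionate group received 0.3 M sodium propionate and the acetate group 0.3 M sodium acetate, each labelled with carbon-13. Conscious mice were infused at 0.2 ml/h, which delivered 2.4 mmol/h/kg of either acid, and livers were collected when 6 h had passed. A butyrate group was treated in the same way with 0.3 M sodium butyrate, and a control group received phosphate-buffered saline, with its sodium content not given in the sources consulted. Equal amounts of liver RNA were pooled from 6 mice for propionate, 6 for acetate, 4 for butyrate and 6 for control, and each pool was hybridised to 1 array. With 1 array a group, none of the differences has a replicate check, and neither an interval nor a p-value can be given. The control and butyrate pools entered the level floor and are quoted to place the 2 main pools, not to test them.

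Acetate and propionate are the shortest of the acids that gut bacteria release from fibre, and propionate differs from acetate by an additional methylene group in its chain. Both reach the liver through the portal vein. Acetate is joined to coenzyme A and enters the acetyl-CoA pool, from which fatty acids and cholesterol are built or which the TCA cycle oxidises. Propionate becomes propionyl-CoA, which biotin- and vitamin B12-dependent enzymes turn into succinyl-CoA, a route by which its carbon can reach glucose.

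The 2 pools were close to each other. The log2 ratio had a median of -0.02 and an SD across genes of 0.15, the smallest among the 6 pairs of arrays, and Pearson's r between their levels was 0.996 across genes, which are not independent replicates. The other SDs ran up to 0.226, that of acetate and butyrate. Above 0 lay 41.7% of the ratios and below 0 58.3%, the background for list members at or above the floor. The counts of signs given for lists also include members below the floor. Over all 18820 genes 47.0% of the ratios lay above 0 and 52.9% below. Within 1.2-fold of each other lay 93.1% of the genes at or above the floor. The pool medians over all probe sets were 5.11 to 5.12. At least 1.5-fold higher with propionate (0.58 on the log2 scale) were 39 genes, 0.414% of those at or above the floor, and at least 1.5-fold lower were 13 genes, or 0.138%. Either way this made 0.553%. Families that liver does not use (odorant, vomeronasal, taste and trace amine receptors, keratin-associated proteins and defensins) gave 1295 genes. Of these 0.541% were as far apart, with an SD of 0.167. The families were not held to the floor, so this share and the 0.553% are not like for like. Without the floor, which is the setting used for the families, 72 of all 18820 genes (0.383%) were higher and 40 (0.213%) lower. The genes at both ends of the ratio are given first, with the gene groups to which they belong.

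**Figure D1:**
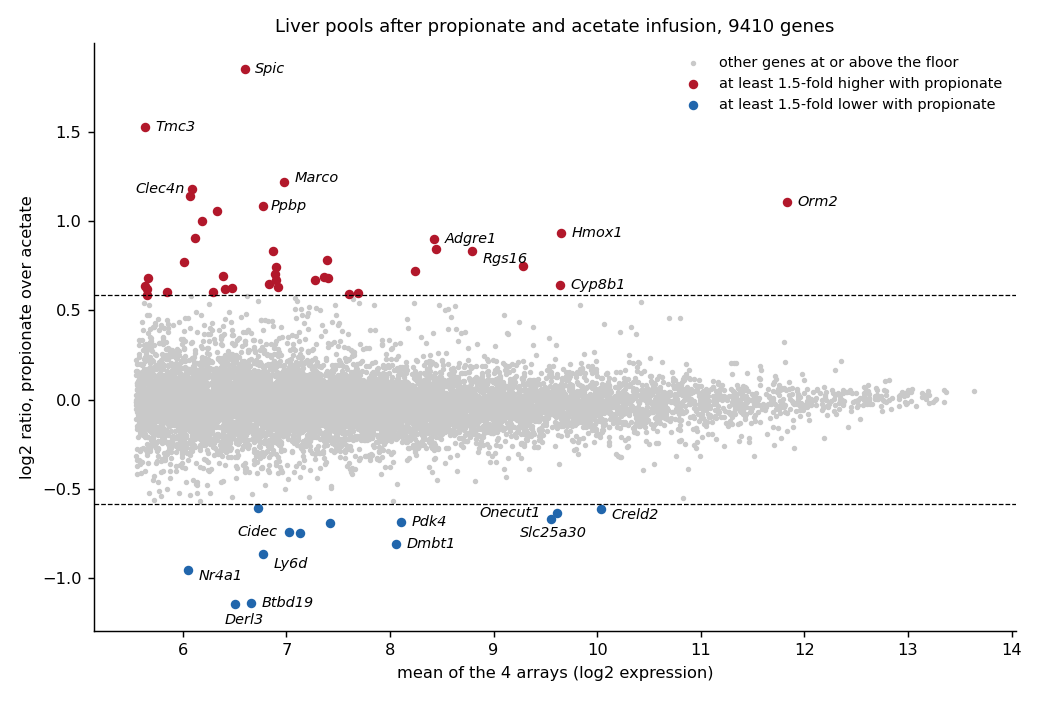
Log2 ratio of propionate over acetate (y axis) against the mean log2 expression of the 4 arrays (x axis) for the 9410 genes at or above the floor, 1 point a gene, with dashed lines at 1.5-fold. The 39 higher genes (red) are led by Spic at 1.85 and the 13 lower genes (blue) by Derl3 and Btbd19 at -1.14.

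Members of the Kupffer cell list stood at the upper end. Spic, the transcription factor of iron-recycling macrophages, stood at 7.54 in the propionate pool and 5.69 in the acetate pool, with 6.90 in the butyrate and 6.27 in the control pool. It was 3.60-fold higher with propionate, the largest ratio of all genes at or above the floor. Marco, a scavenger receptor of macrophages, stood at 7.42 with propionate and 6.20 with acetate (7.85 with butyrate, 6.45 in control), a 2.33-fold difference. Adgre1, which encodes the macrophage surface protein F4/80, stood at 8.82 with propionate and 7.92 with acetate (8.86 with butyrate, 8.10 in control), 1.87-fold higher. For these 3 genes propionate and butyrate lay on the upper side, and acetate and control on the lower side. Hmox1, the haem-degrading enzyme that macrophages use when they clear old red cells and that is also an antioxidant response gene, was at 9.98 with propionate and 9.05 with acetate (10.05 with butyrate, 9.53 in control). Its ratio was 0.94.

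All 15 measured markers of Kupffer cells, the resident macrophages of the liver, lay above 0, with ratios of 0.07 to 1.85 and a median of 0.25, against a median of -0.02 over all genes at or above the floor. Of them, 3 passed 1.5-fold (against 0.414% of genes at or above the floor), namely Spic, Marco and Adgre1. The next ratios were those of Cd5l, a secreted macrophage protein (0.53), the growth factor receptor Csf1r (0.44), the iron exporter Slc40a1 (0.37) and the phosphatidylserine receptor Timd4 (0.36). The summed linear level of the 15 markers was 10348 in the propionate pool and 8340 in the acetate pool, with 11758 in the butyrate and 8435 in the control pool. Hepatocyte markers differed by far less, with a median of 0.005 over 5 genes, among them albumin, Alb (13.38 with propionate, 13.33 with acetate). Markers of endothelium (median 0.04, 8 genes, none past 1.5-fold) and of stellate cells and fibroblasts (median -0.05, 8 genes, none past 1.5-fold) likewise stayed near 0. In whole-liver RNA fewer cells of a type and less RNA per cell cannot be told apart.

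Most receptors by which myeloid cells sense sugars and sialic acids stood in the same direction. Of 26 measured macrophage receptors and lectins, 21 lay above 0, with a median of 0.30. Below 0 lay Trem2 (-0.26), the lectin Clec7a (-0.11) and the immune complex receptors Fcgr1 (-0.03), Fcgr3 (-0.02) and Fcgr2b (-0.01). Fcgr4, another immune complex receptor, was at 0.12. Of the 21 at or above the floor, 3 passed 1.5-fold (against 0.414% of all such genes), none in the lower direction. Clec4n, which encodes the fungal sugar receptor dectin-2, was at 6.81 with propionate and 5.63 with acetate, 2.27-fold higher. Siglece, an inhibitory sialic acid receptor, was at 7.75 with propionate and 6.96 with acetate. The inhibitory lectin receptor Clec4a1 was at 7.09 with propionate and 6.39 with acetate, and its neighbour Clec4a2 (ratio 0.71) lay below the floor in all 4 pools. Clec4a genes are close paralogs, so the member behind a value is uncertain. The signalling adaptors Tyrobp (0.46) and Fcer1g (0.39), which carry signals of such receptors, the endotoxin co-receptor Cd14 (0.49) and Ms4a6c (0.50) lay above 0 without reaching 1.5-fold. Genes of antigen presentation by MHC class II showed smaller ratios in 6 of 8 cases above 0, with a median of 0.18 and the cathepsin gene Ctss highest at 0.28.

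**Figure D2:**
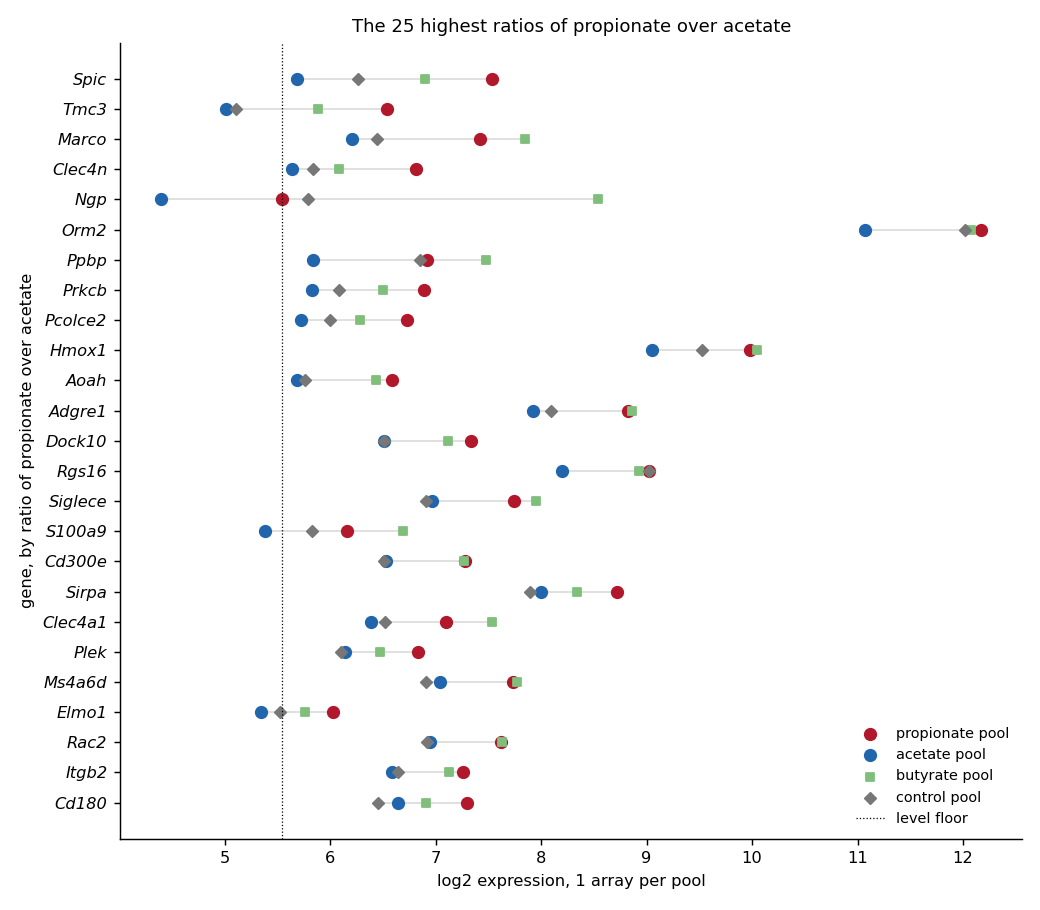
Log2 expression (x axis) of the 25 genes with the highest ratios of propionate over acetate, ordered by ratio from the top, with 1 symbol for each pool and a grey line over the range of the 4 pools. For Spic, Clec4n, Prkcb and Sirpa the propionate pool (red circles) stands above the other 3 pools, and for Ngp, Marco and Ppbp the butyrate pool (green squares) stands highest.

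Further genes among the 25 highest belong to none of the gene lists and were named by rank, so their roles are background only and no theme was tested. They include Prkcb, a protein kinase C of B cells and myeloid cells (6.89 with propionate, 5.83 with acetate), Aoah, which inactivates endotoxin (0.91), and Sirpa, the receptor for the do-not-eat-me signal CD47 (0.72). Dock10 (0.83), Elmo1 (0.68), Rac2 (0.67) and Plek (0.69) act on the cytoskeleton and signalling of blood cells. The integrin chain Itgb2 (0.67) and the toll-like receptor relative Cd180 (0.65) belong to leukocyte surfaces, as do Cd300e (0.75) and Ms4a6d (0.69), 2 members of families with close paralogs. Beyond the first 25, Bin2 (0.63), Cyth4 (0.62), Pik3r5 (0.60), Itgal (0.59) and, from the neutrophil and monocyte list, the growth factor receptor Csf3r (0.59) also passed 1.5-fold. Tmc3, a gene of the transmembrane channel-like family, had the second highest ratio, 1.53, with 6.54 in the propionate and 5.01 in the acetate pool, where it lay below the floor. Pcolce2, an enhancer of procollagen processing, had a ratio of 1.00.

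Neutrophil and monocyte genes lay above 0 in 11 of 11 cases, with a median of 0.33, but 7 of the 11 had mean levels below the floor. Their summed linear level was 6641 with propionate and 6414 with acetate, nearly all of it from Lcn2, which hepatocytes also make in the acute phase. The other 10 genes summed to 363 with propionate and 253 with acetate (873 with butyrate, 380 in control). Ngp, a neutrophil granule protein, stood at 5.54 with propionate and 4.40 with acetate, both below the floor, against 8.54 with butyrate and 5.79 in control. S100a9, a subunit of calprotectin, stood at 6.16 with propionate and 5.38 with acetate, again with butyrate highest (6.69). The granule enzyme Mpo had a ratio of 0.73 at levels below the floor in both pools. For these genes a level below the floor is near background, so the size of a ratio is not exact. Of 29 chemokines and cytokines, 22 lay above 0 (median 0.11). Ppbp, a chemokine of platelets, was at 6.92 with propionate and 5.83 with acetate, and the control pool (6.86) was as high as the propionate pool. Tnf, below the floor, had a ratio of 0.86, and the neutrophil attractant Cxcl1 one of 0.53 (8.90 with propionate, 8.36 with acetate). The interferon-induced Cxcl10 went the other way, at -0.35. Lymphocyte markers lay above 0 in 7 of 9 cases, and only Nkg7, of natural killer and T cells (0.53), had a mean level at or above the floor.

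Of the 3 measured red cell markers, Slc4a1, the anion exchanger, passed 1.5-fold (0.64), against 0.414% of genes at or above the floor. All 3 lay above 0, with Alas2, the first enzyme of haem synthesis in red cells, at 0.17, and their summed linear level was 672 with propionate and 585 with acetate. Epb42, the third of them, lay below the floor. The part of blood content of the livers in the ratios of white blood cell genes was not tested. Without all genes of 8 lists of immune and blood cells (83 genes, a choice made after the data were seen), 28 genes were higher and 13 lower with propionate. This removed list members only. The 28 still hold genes of blood cells and leukocyte surfaces that belong to no list, among them Prkcb, Rac2, Itgb2 and Cd180. The 4 lists of Kupffer cells, neutrophils and monocytes, macrophage receptors, and chemokines held 10 of the 39 higher genes. In that order these were 3 of 15, 3 of 4, 3 of 21 and 1 of 15 members at or above the floor. Over all genes at or above the floor the share was 0.414%. Ngp, among the 10, lay below the floor in both the propionate and the acetate pool.

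Acute-phase genes, which hepatocytes switch on in inflammation, were above 0 in 20 of 25 cases with a small median of 0.05. Orm2, an orosomucoid, stood at 12.17 with propionate and 11.07 with acetate, 2.15-fold higher, while butyrate (12.07) and control (12.02) lay beside propionate. Orm3 followed with 7.67 with propionate and 7.07 with acetate (8.14 with butyrate, 7.90 in control). For both genes the acetate pool was the one that stood low. Orosomucoid genes are close paralogs and the member is uncertain, but Orm1 differed by 0.11 (12.84 with propionate, 12.73 with acetate). The serum amyloid gene Saa3 had a ratio of 0.54 and the pentraxin Apcs one of 0.32, and Steap4, a metalloreductase, one of -0.23. Rgs16, a G-protein regulator of hepatocytes, showed the same pattern as Orm2, with 9.02 in the propionate pool, 8.19 in the acetate pool, 8.92 with butyrate and 9.02 in control.

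In bile acid metabolism the 2 hydroxylases that set the amount and the kind of bile acids had ratios above 0, and Cyp8b1 passed 1.5-fold. Cyp8b1, the sterol 12-alpha-hydroxylase that makes cholic acid, stood at 9.70 with propionate and 9.06 with acetate (10.11 with butyrate, 9.69 in control), 1.56-fold higher. Cyp7a1, the rate-limiting enzyme of bile acid synthesis, stood at 10.80 with propionate and 10.34 with acetate (11.07 with butyrate, 10.99 in control), a ratio of 0.46, under 1.5-fold. In both cases acetate was the lowest of the 4 pools. Nr0b2, which encodes SHP, a repressor of both genes, lay at -0.22, and the sterol exporter genes Abcg5 and Abcg8 at -0.32 and -0.22. Over the 16 genes the median was 0.02, with 9 above 0 and 7 below. Cyp8b1 alone of them passed 1.5-fold, against 0.414% of genes at or above the floor. Hnf4aos, an antisense transcript gene at the locus of the liver regulator HNF4A, had a ratio of 0.63 with butyrate and control above both pools. No source used here says whether the array told sense from antisense RNA.

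Among the 39 genes, 4 have predicted or small nucleolar RNA names and are named here after their values were seen. Snora3 (0.85), Snora16a (0.75) and Snora44 (0.68) are small nucleolar RNAs of the class that guides pseudouridylation, and Gm5150 (0.62) is a predicted gene. Snora3 was at 8.74 with propionate and 7.89 with acetate, and the control pool (8.85) lay beside propionate. H1f1, a linker histone gene, also passed 1.5-fold (0.61).

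At the lower end, 13 genes of mixed function stood at least 1.5-fold lower with propionate, 12 of them with names other than predicted ones. Derl3, which helps to export misfolded proteins from the endoplasmic reticulum, was at 6.35 in the propionate pool and 7.50 in the acetate pool, with 5.87 in the butyrate and 6.30 in the control pool. It was 2.21-fold lower with propionate, and acetate was the pool that stood apart. Btbd19, a BTB-domain gene of little known function, was at 5.96 with propionate and 7.10 with acetate (6.52 with butyrate, 7.05 in control), so there propionate was the low pool. The same held for Dmbt1, a mucin-like defence protein of epithelia (7.48 with propionate, 8.29 with acetate, 7.88 with butyrate, 8.60 in control), and for Onecut1, the hepatocyte transcription factor HNF6 (9.16 with propionate, 9.79 with acetate, 9.66 with butyrate, 9.83 in control). Creld2, an endoplasmic reticulum chaperone, was at 9.40 with propionate and 10.01 with acetate and stood higher still with butyrate (10.17) and in control (10.58). The predicted gene 1700017B05Rik, named after its value was seen, had a ratio of -0.69.

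Nr4a1, an immediate early nuclear receptor, was at 5.82 with propionate and 6.77 with acetate, while butyrate (5.87) and control (5.74) lay beside propionate. Ly6d, a surface protein gene, was at 7.03 with propionate and 7.90 with acetate, both above butyrate (6.22) and control (5.93). Ly6d thus differed between propionate and acetate by a ratio of -0.86, with both acids on the same side of the control pool. Slc25a30, a mitochondrial carrier (-0.67), and Cabyr, a calcium-binding protein known from sperm (-0.75), followed. Acta2, smooth muscle actin, was at 6.60 with propionate and 7.20 with acetate. The stellate cell and fibroblast list beside which Acta2 belongs had 3 members above 0 and 5 below, with a summed linear level of 4943 with propionate and 5070 with acetate, and Des, another muscle-type gene of that list, went the other way (0.20). The part of smooth muscle or stellate cells in the Acta2 ratio was not tested.

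**Figure D3:**
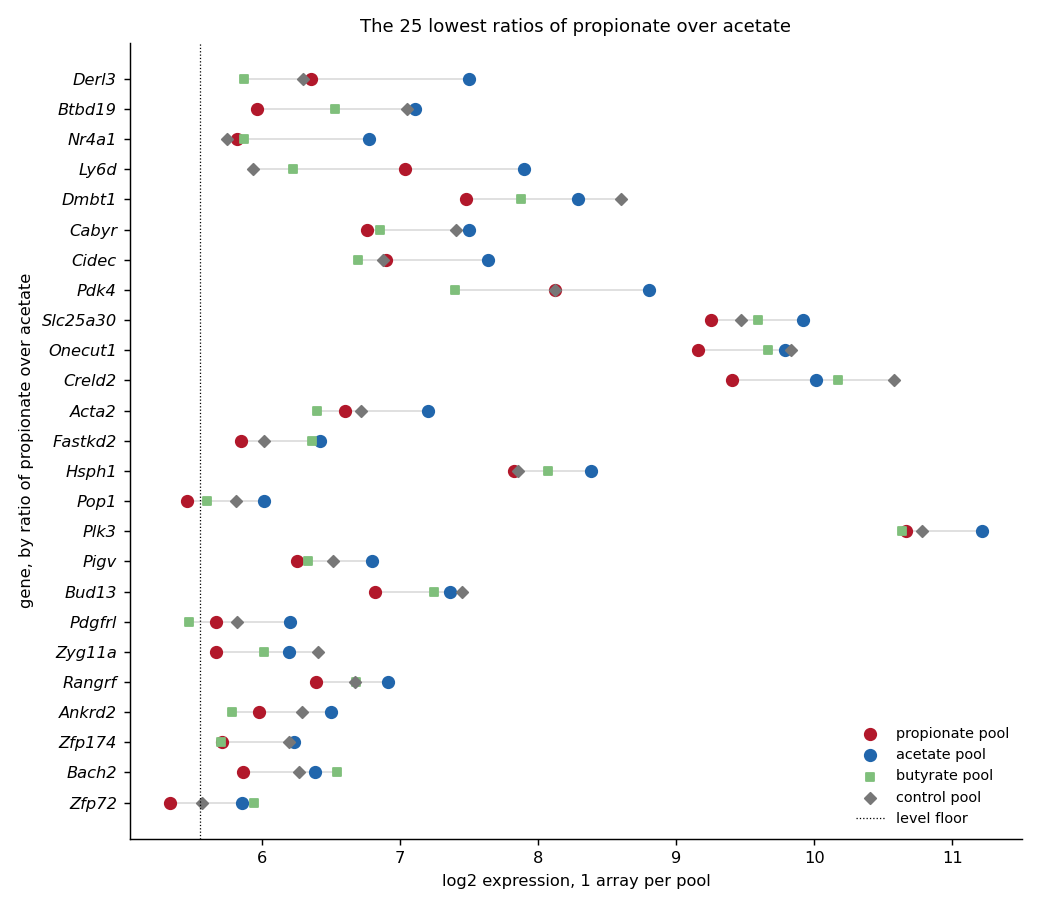
Log2 expression (x axis) of the 25 genes with the lowest ratios of propionate over acetate, ordered by ratio from the top, with 1 symbol for each pool and a grey line over the range of the 4 pools. The acetate pool (blue circles) stands above the other 3 for Derl3, Nr4a1, Ly6d, Cidec and Pdk4, and the propionate pool (red circles) stands below the other 3 for Btbd19, Dmbt1, Onecut1 and Creld2.

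Just under 1.5-fold lower stood Fastkd2, of mitochondrial RNA handling (-0.57), the chaperone Hsph1 (-0.56), Pop1, of ribonuclease P (-0.56), the kinase Plk3 (-0.55), Pigv, of GPI anchor synthesis (-0.55), and Bud13, of splicing (-0.54). Pdgfrl had a mean ratio of -0.54, but its 2 probe sets disagreed, at -1.14 and 0.07. The zinc finger genes Zfp174 and Zfp72 (both -0.52), the transcription repressor Bach2 (-0.52), Zyg11a (-0.53), Rangrf (-0.53) and Ankrd2 (-0.52) make up the rest of the 25 lowest. No shared list joins them.

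Genes of the endoplasmic reticulum stress response, the programme that refills the organelle with chaperones when unfolded proteins build up, lay mostly below 0. Of 33 measured members 28 lay below 0 and 5 above, with a median of -0.13, and 2 (Derl3 and Creld2) passed 1.5-fold, against 58.3% of all genes at or above the floor with a ratio below 0 and 0.138% past 1.5-fold. Hspa5, which encodes the chaperone BiP and is the usual readout of this programme, was at 11.18 with propionate, 11.50 with acetate, 11.60 with butyrate and 11.76 in control, a ratio of -0.31. Syvn1, the ubiquitin ligase that tags proteins for export (8.88 with propionate, 9.21 with acetate), the growth-factor-like chaperone Manf (7.28 with propionate, 7.61 with acetate) and the chaperone Hyou1 (9.44 with propionate, 9.74 with acetate) had ratios of -0.33, -0.33 and -0.30. Dnajb9 (-0.26) and Sdf2l1 (-0.24), both co-chaperones of BiP, came next. For Hspa5, Syvn1, Manf and Hyou1 the order of the pools was propionate, acetate, butyrate, control from low to high, and 27 of the 33 genes were higher in control than with propionate. Asns, the asparagine synthetase of the amino acid branch of the response, went the other way, at 0.30 (7.84 with propionate, 7.54 with acetate). The summed linear level of the list was 38588 with propionate and 42313 with acetate (43300.1 with butyrate, 45819 in control).

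The pancreas is rich in these genes, so its markers were set beside them. All 6 measured acinar enzyme genes lay above 0, with a median of 0.27 and a summed linear level of 5497 with propionate, 4970 with acetate, 6264 with butyrate and 8245 in control. Between propionate and acetate the acinar genes thus ran opposite to most chaperones, while all 6, like 27 of the 33 stress response genes, were higher in control than with propionate. None of the 6 passed 1.5-fold between propionate and acetate or lay below the floor. The part of pancreatic tissue in the chaperone levels was not tested.

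Many chaperone genes of this programme carry an element bound by ATF6 and XBP1 together with NF-Y, with the letters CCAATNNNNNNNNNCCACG. The 250 bases upstream of each gene's start in RefSeq (assembly GRCm38.p6) were searched for these letters on both strands, with no mismatch. They were found for 35 of 27025 genes in that table, 0.130%, and for 15 of the 7608 genes at or above the floor that had a promoter there, of which 13 had a ratio below 0 (median -0.17). Of 28 list members with a promoter, 9 held the element, and all 9 had a ratio below 0, with a median of -0.20. These 9 are part of the 15 and of the 13 just given, so the counts are not separate. They were Derl3, Creld2, Syvn1, Hspa5, Pdia6, Dnajc3, Hsp90b1 (with 2 copies), Canx and Calr. A ratio below 0 was held by 58.3% of all genes at or above the floor and by 28 of the 33 measured list members. Whether holders differ from other list members was not tested. Among the genes at least 1.5-fold lower, 2 of 10 with a promoter held it, namely Derl3 and Creld2, which are counted above. Among those higher 0 of 26 held it. At the share of 0.197% over genes at or above the floor, a count of 0 in so few genes carries no information. A match of letters is a description and not a site of binding. The 200 bases before the start of the 4 holders with the lowest ratios are printed 5′ to 3′ on the gene's strand, which is the plus strand for all 4, to show where the element lies, with the element in capitals. They lie at chr10:75893198-75893397 (Derl3), chr15:88819446-88819645 (Creld2), chr19:6046376-6046575 (Syvn1) and chr2:34771890-34772089 (Hspa5).
Derl3: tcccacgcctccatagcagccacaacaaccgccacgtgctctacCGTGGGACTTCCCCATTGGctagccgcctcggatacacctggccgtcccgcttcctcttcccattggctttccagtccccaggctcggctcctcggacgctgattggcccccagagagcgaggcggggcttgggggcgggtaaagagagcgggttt
Creld2: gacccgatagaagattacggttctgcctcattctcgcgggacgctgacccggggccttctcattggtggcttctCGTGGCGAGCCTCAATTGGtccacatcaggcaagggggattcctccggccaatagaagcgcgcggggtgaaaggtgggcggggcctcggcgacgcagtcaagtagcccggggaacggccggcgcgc
Syvn1: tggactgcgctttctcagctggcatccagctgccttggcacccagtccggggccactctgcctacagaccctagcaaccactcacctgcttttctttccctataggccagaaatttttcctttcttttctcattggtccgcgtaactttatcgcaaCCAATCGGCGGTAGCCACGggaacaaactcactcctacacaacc
Hspa5: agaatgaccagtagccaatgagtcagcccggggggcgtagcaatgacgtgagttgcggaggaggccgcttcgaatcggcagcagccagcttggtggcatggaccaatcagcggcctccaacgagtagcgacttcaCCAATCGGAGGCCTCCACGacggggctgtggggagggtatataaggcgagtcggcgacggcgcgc

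In Derl3 and Creld2 the element reads in reverse, beginning with the complement CGTGG and ending with ATTGG, and lies 156 to 138 and 126 to 108 bases before the start. Syvn1 and Hspa5 hold it forward, at 44 to 26 and 65 to 47 bases before the start. The gene with the lowest ratio of the list and the 3 others thus share the element but not its orientation or distance. Derl3 differed from the others in level pattern too, since it alone of the 4 was higher with acetate than in the control pool.

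**Figure D4:**
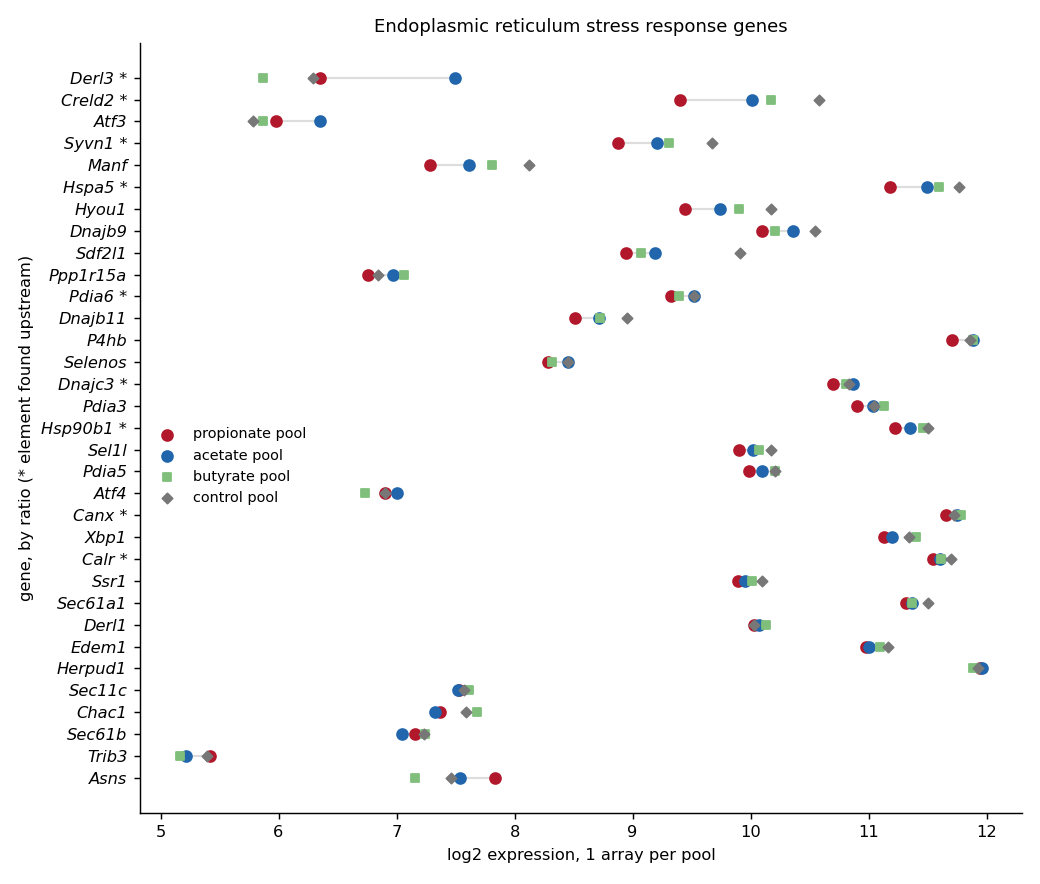
Log2 expression (x axis) of the 33 measured endoplasmic reticulum stress response genes, ordered by ratio of propionate over acetate from the lowest at the top, with 1 symbol for each pool and a grey line between the propionate and acetate pools. An asterisk marks the 9 genes with the element upstream, and for Creld2, Syvn1, Manf, Hspa5 and Hyou1 the pools run propionate, acetate, butyrate, control from left to right.

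Chaperones of the cytosol and mitochondria leaned the same way. All 14 measured heat shock genes lay below 0, with a median of -0.16, though none reached 1.5-fold. Hsph1 was lowest (7.82 with propionate, 8.38 with acetate, 7.85 in control), followed by the co-chaperones Bag3 (-0.30) and Stip1 (-0.24) and by Hsp90aa1 (-0.23). For Hsph1 the acetate pool was the high one, with propionate and control alike.

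Immediate early genes, transcribed within minutes of many stimuli, lay below 0 in 22 of 26 cases, with a median of -0.16. Of the 16 at or above the floor, Nr4a1 alone passed 1.5-fold, against 0.138% of all such genes. Klf6 (6.90 with propionate, 7.30 with acetate), Maff (5.72 with propionate, 6.12 with acetate) and Atf3 (5.98 with propionate, 6.35 with acetate) had ratios of -0.41, -0.40 and -0.38. Nr4a2 (-0.48) and Klf4 (-0.36) were also below 0, at mean levels below the floor, and Egr2 (0.36), likewise below the floor, was above. Glucocorticoid and fasting targets were below 0 in 16 of 20 cases (median -0.14, none past 1.5-fold). The phosphatase Dusp1 was at -0.32, the insulin-like growth factor binding protein Igfbp1 at -0.27 (11.83 with propionate, 12.10 with acetate, 11.68 in control) and the insulin signalling adaptor Irs2 at -0.25. Dusp1 belongs to both lists.

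Genes that take up, activate and break down the acids themselves differed little. Of 14 genes of propionate breakdown, 4 lay above 0 and 10 below, none passed 1.5-fold, and the ratios ran from -0.16 to 0.12. The 2 subunits of propionyl-CoA carboxylase, Pccb (9.20 with propionate, 9.36 with acetate) and Pcca (8.60 with propionate, 8.73 with acetate), had ratios of -0.16 and -0.13. The methylmalonyl-CoA mutase Mmut was at 9.53 with propionate and 9.57 with acetate, and the epimerase Mcee at 11.07 with propionate and 11.03 with acetate. Of these 4 genes Mcee alone stood higher with propionate, by 0.03. The cobalamin handling genes gave -0.13 for Mmaa (below the floor), 0.09 for Mmab, -0.04 for Mmachc, -0.06 for Mmadhc, 0.12 for the lysosomal exporter Abcd4 and -0.01 for its partner Lmbrd1. Mtr, the other enzyme that uses cobalamin, was at 0.05, and the succinyl-CoA ligase subunits Suclg1, Suclg2 and Sucla2 were at -0.05, -0.06 and -0.01.

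Activation to the coenzyme A ester was as even. Acss2, the cytosolic acetyl-CoA synthetase that uses acetate, was at 10.01 in both pools (9.75 with butyrate, 10.24 in control). Acss3, which prefers propionate, was at 6.86 with propionate and 6.92 with acetate, and Acss1, the mitochondrial acetate enzyme, lay below the floor with a ratio of -0.20. The medium-chain synthetases Acsm1 and Acsm5 were at -0.08 and 0.12, and the long-chain enzymes Acsl5 and Acsl4 at -0.06 and 0.09. Acsm2 (-0.04) and Acsm4 (0.07) lay below the floor. The 9 measured genes had a median of -0.04. Among 10 transporters and receptors of these acids, 5 lay above 0 and 5 below, with the lactate and short-chain acid carriers Slc16a1 at -0.09 and Slc16a7 at -0.06, while the receptors Ffar2 (-0.07) and Ffar3 (0.15) lay below the floor in both pools.

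Larger differences stood in 2 genes of the list of fatty acid oxidation and targets of PPARalpha, the fatty acid sensing receptor. Pdk4, the kinase that switches pyruvate dehydrogenase off in fasting, was at 8.12 with propionate and 8.80 with acetate (7.40 with butyrate, 8.12 in control), 1.60-fold lower. Cidec, a lipid droplet protein, was at 6.90 with propionate and 7.64 with acetate (6.69 with butyrate, 6.88 in control), 1.67-fold lower. In both genes propionate lay beside control and acetate above. Cidec is also abundant in fat cells, and of 4 measured adipocyte markers, all with mean levels below the floor, 3 were below 0 (Retn -0.86, Adipoq -0.45, Plin1 -0.32) with a summed linear level of 92.9 with propionate and 131 with acetate. The part of adipose tissue in the Cidec ratio was not tested.

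The thioesterases Acot1 and Acot2, which release fatty acids from coenzyme A and are PPARalpha targets, had ratios of -0.50 and -0.39. Acot1 was at 6.97 with propionate and 7.47 with acetate (6.60 with butyrate, 6.91 in control). Acot2 was at 9.73 with propionate and 10.11 with acetate, and both stood above butyrate (8.81) and control (8.71). The 2 are close paralogs and the member is uncertain. Over the list of fatty acid oxidation and PPARalpha targets 22 of 28 lay below 0 and 6 above, with a median of -0.06. Of all genes at or above the floor 58.3% lay below 0. Pdk4 and Cidec alone of the list passed 1.5-fold, against 0.138% of all such genes. Next to them came the hormone Fgf21 (-0.26), the peroxisomal enzyme Ehhadh (-0.22) and Angptl4 (-0.21). Cyp4a31 went the other way (0.20), and Cyp4a14 (-0.02) and Fabp1 (0.001) hardly differed. Cpt1a, the gate of mitochondrial oxidation, was at 12.00 with propionate and 11.94 with acetate.

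Of 22 genes that serve the TCA cycle or pyruvate dehydrogenase, 20 lay below 0, by a median of -0.09. Pdk4 alone passed 1.5-fold, against 0.138% of genes at or above the floor. Fumarase Fh1 (-0.21), Ogdh (-0.16), Sdha (-0.15) and Idh2 (-0.14) were the lowest enzymes of the cycle, and the phosphatase subunit Pdp2, which opposes Pdk4, was at -0.28. Enzymes of fatty acid synthesis lay below 0 in 14 of 20 cases (median -0.06), against 58.3% of all genes at or above the floor. Acly, which makes cytosolic acetyl-CoA from citrate, was at 8.80 with propionate and 9.05 with acetate, Acaca at 8.63 with propionate and 8.84 with acetate, and Elovl6 at 10.46 with propionate and 10.69 with acetate. Their ratios of -0.25, -0.21 and -0.23 were small, and Scd2 went the other way (0.25). Cholesterol synthesis was split, with 9 above 0 and 10 below and Mvk (0.31) and Msmo1 (0.30) at the top.

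Gluconeogenesis, the destination of propionate carbon, held no gene past 1.5-fold in either direction. Of 18 measured genes 7 lay above 0 and 11 below (median -0.03). Pck1, its rate-limiting enzyme, was at 12.80 with propionate and 12.75 with acetate, and G6pc, which releases glucose, at 12.44 with propionate and 12.55 with acetate. Ppargc1a, the coactivator that drives the programme in fasting, had the lowest ratio, -0.37, with 8.29 with propionate, 8.67 with acetate, 8.38 with butyrate and 8.16 in control. Both its probe sets pointed the same way. The glycogen-targeting subunit Ppp1r3g was at -0.49 (7.26 with propionate, 7.76 with acetate) and Txnip, a glucose-responsive gene, at -0.25. Hk2 (0.45) lay below the floor in both pools.

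Drug-metabolising genes split within a family. Cyp2b10, the classic target of the xenobiotic receptor CAR, was at 4.39 with propionate and 5.81 with acetate, with 4.12 in the butyrate and 4.21 in the control pool. Acetate was the one pool in which it lay above the floor. Its mean level lay below the floor, so its ratio of -1.43 is not among the 13 lower genes and its size is not exact. Cyp2b9, a close paralog, went the other way with a ratio of 0.29, at 8.28 with propionate and 7.99 with acetate, both above butyrate (5.05) and control (5.45). The 2 paralogs thus differed in which acid stood higher, though cross-hybridisation between them was not tested. Over 32 genes of cytochromes and conjugation the median was -0.03, and Cyp3a44 (-0.41) and Cyp1a2 (-0.25) were the lowest of those at or above the floor. Among 14 NRF2 targets, 6 lay above 0 and 8 below. The glutathione transferases Gstm3 (10.86 with propionate, 11.25 with acetate, 9.72 with butyrate, 9.95 in control) and Gstm2 (-0.30) had ratios below 0 and Hmox1 one above, so the list held ratios of both signs with a median of -0.01. Gstm genes are close paralogs as well. Probe sets shared by the glutathione transferases Gsta1 and Gsta2 name several genes and so entered no list. Those past 1.5-fold had ratios of -0.99 to -0.90 and are described under the flagged results.

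Other groups showed small or mixed ratios. Of 12 genes of the growth hormone and IGF1 axis, 6 lay above 0 and 6 below. Onecut1 (-0.63) alone passed 1.5-fold, against 0.138% of genes at or above the floor. Bcl6, a male-biased transcription repressor, had a ratio of 0.43 (7.61 with propionate, 7.18 with acetate), and Cish, a target of growth hormone signalling, one of -0.31. Cux2, a regulator of female-biased genes, was at 0.43 (5.76 with propionate, 5.33 with acetate), and male-biased genes had a median of -0.06 with Cyp4a12b at -0.32. Clock genes lay below 0 in 14 of 17 cases (median -0.07), with Cry1 at -0.24 and Per3 at 0.20. Cell cycle genes had 18 of 29 above 0, but the 11 at or above the floor had a median of -0.07, with Rrm2 at 0.37 and Ccnb2 at -0.29. Tubb2a was at -0.34. Histone deacetylases and genes known to rise on their inhibition had a median of 0.06, with the linker histone H1f2 at 0.31. Apart from Onecut1, no member at or above the floor of the growth hormone, sex-biased, clock, cell cycle, tubulin and histone deacetylase lists passed 1.5-fold.

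Markers of bile ducts, intestine and muscle were set beside these values. Cholangiocyte markers lay below 0 in 5 of 5 cases (median -0.23, with 3 of 5 below the floor and a summed linear level of 222 with propionate and 263 with acetate). Intestinal genes had a median of -0.23 over 6 members, 2 of them below the floor, and a summed linear level of 1006 with propionate and 1188 with acetate. Skeletal muscle genes had 5 of 6 above 0 and a median of 0.29, with a summed linear level of 1569 with propionate and 1304 with acetate and with troponin Tnnt3 at 8.11 with propionate and 7.60 with acetate. None of the genes of these 3 lists passed 1.5-fold.

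**Figure D5:**
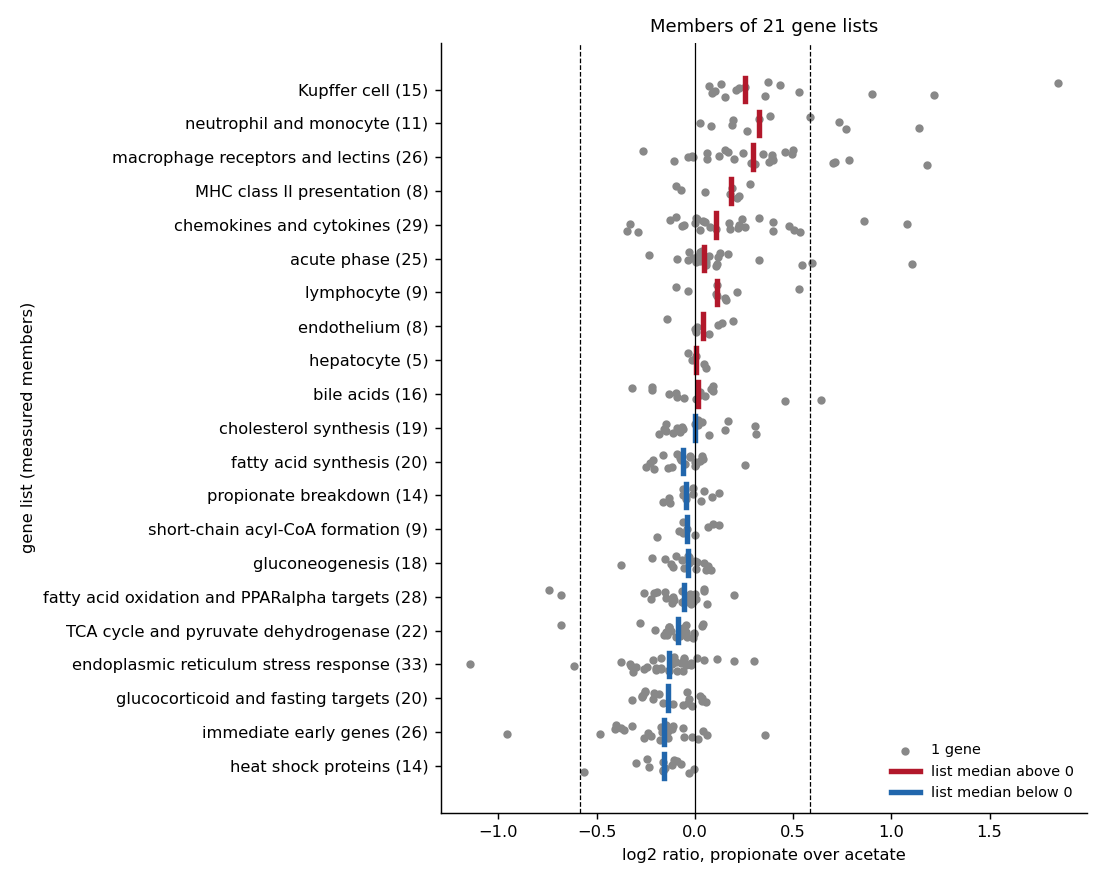
Log2 ratio of propionate over acetate (x axis) of the measured members of 21 gene lists (rows, with their number of measured members), 1 grey point a gene, a bar at each list's median (red above 0, blue below 0) and dashed lines at 1.5-fold. Kupffer cell and neutrophil genes lie wholly above 0 and heat shock genes wholly below 0, while propionate breakdown and short-chain acyl-CoA formation lie within 0.20 of 0.

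The butyrate and control pools were used to see nearer to which of the 2 pools they lay at each gene. Of the 39 higher genes, the butyrate level lay nearer to propionate in 33 and the control level nearer to acetate in 26, with both true for 22. Over all genes at or above the floor with a ratio above 0 the shares were 60.4% and 40.4%, with both true for 667 of 3920. Of the 13 lower genes, butyrate was nearer to propionate in 10 and control nearer to propionate in 8, with both true for 7. Over all genes at or above the floor with a ratio below 0 those shares were 45.3% and 43.1%, with both true for 1564 of 5489. Spic, Adgre1 and Siglece belong to the first kind, and Derl3, Nr4a1, Cidec and Pdk4 to the second. The first kind puts 2 pools on each side, so it does not tell which pool was the unusual one. Of all genes at or above the floor 93.1% lay within 1.2-fold between propionate and acetate. The shares over all genes are thus not like for like with those of the called genes.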

How the data were processed

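Liver RNA of 4 infusion groups was measured, 1 array for each pool, and 2 of the arrays were compared here. The authors deposited 1 log2 expression value for each probe set and array, to which RMA (background correction, quantile normalisation, summary of probes) is credited in the submitters' processing notes, with version, settings and array build not given in the sources used here. Quantile normalisation makes a shift of all genes invisible. Of 35556 probe sets, 21218 had 1 symbol in the platform annotation, 1881 had several and 12457 had none. Symbols were checked by Entrez ID against a RefSeq table (21185 matched, 33 did not, 0 changed). Probe sets of a symbol were averaged, which gave 18820 genes, 1386 with more than 1 probe set. Short probes can cross-hybridise, so values of close paralogs are uncertain as to the member.

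Ratios were differences of log2 values. A gene was called at 1.5-fold over the 9410 genes at or above the floor, and 1 array a group limits the precision to that of single pools. Named were the 25 highest and 25 lowest ratios without predicted, olfactory, vomeronasal, microRNA, small nuclear or nucleolar names, the further genes past 1.5-fold, up to 6 members of each of 48 lists (702 of 794 genes measured) by absolute ratio, all members of the lists of propionate breakdown and acyl-CoA formation, and close paralogs. Counts past 1.5-fold in lists cover members at or above the floor. A few genes outside this rule are quoted as examples within their list. The comparison, the rule and the lists were chosen with earlier results of these data known. Lists are described by counts and medians, without a test. Alternatives were no floor, other floors and folds, cyclic loess, median centring and the highest probe set. The ratio step was tested on simulated data. Promoters came from RefSeq (GRCm38.p6). Tools were Python 3.11.15, pandas 2.3.3, numpy 2.4.6, matplotlib 3.10.9, R 4.3.3 and limma 3.58.1.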

Additional observations from a re-analysis of the deposited data

Results flagged for a closer look

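Probe sets that name several genes entered no gene comparison. Of the 835 at or above the floor, 7 (0.838%) stood at least 1.5-fold apart between propionate and acetate. The share was 0.541% in genes of families that liver does not use, which were taken without the floor. Of the 7, 3 were higher and 4 lower with propionate. All 4 lower ones are shared by the glutathione transferases Gsta1 and Gsta2 and predicted relatives. Their levels were 8.60, 8.63, 7.96 and 7.87 with propionate and 9.59, 9.58, 8.89 and 8.77 with acetate, against 5.85 to 6.35 in the butyrate and control pools. Both acids thus stood above the other 2 pools, and acetate stood higher by 0.90 to 0.99 on the log2 scale. The 3 higher ones name the myeloid receptor pairs Cd300ld3 and Cd300ld5 (ratios 0.81 and 1.08) and Pilrb1 and Pilrb2 (0.61).

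Probe sets with no symbol in the annotation differed more often, with 171 of 3980 at or above the floor (4.30%) at least 1.5-fold apart, 61 higher and 110 lower with propionate. What they measure is not named here.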

How the results depend on the processing

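The counts of 39 higher and 13 lower genes moved with the floor and with the fold. They were 72 and 40 without a floor, 9 and 2 at 2-fold, and 143 and 93 at 1.3-fold. They were 32 and 14 with the floor required in both pools, 40 and 15 with it set on the mean of the 2 pools, 43 and 12 after cyclic loess, 42 and 13 after median centring, and 39 and 14 with the highest probe set of each symbol. Cyclic loess and median centring shifted the median ratio by 0.02 and raised the share of genes with a ratio above 0, which was 41.7%, to 48.2% and 49.0%. Of 936 recomputed values of 312 named genes, 931 moved by less than 0.167 (the SD in families that liver does not use) and no ratio past 1.5-fold changed sign. The 5 others, all with the highest probe set, were Ckm (0.47), Hspb1 (-0.44), Nr1d2 (-0.07), Pdgfrl (0.07) and Prom1 (0.13), of which Nr1d2, Pdgfrl and Prom1 changed sign. Of 239 list values, 236 moved by less than that. The mean of Kupffer cell markers was 0.46, and members at or above the floor gave 0.68 for neutrophils and monocytes and 0.53 for lymphocytes (1 gene). List medians changed sign in 9 lists, all within 0.09 of 0. No paired analysis was possible because each group had 1 array. Levels near the floor limit the exactness of ratios.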
